A study of Mus musculus with 18 samples.

Results

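Hepatic expression of 27 genes of cholesterol synthesis and of its control by the transcription factor SREBP2 was examined in 18 mouse livers. The 27 were taken by symbol from a list of known pathway members and were all present among the 19057 rows of the deposited table, and all 27 passed the filter on low values, as did 10507 rows in total. The livers came from 6 groups of 3 ICR males, all 10 weeks old. Con mice received the regular diet and saline, and AOS mice are labelled with alginate oligosaccharide at 10 mg/kg. HFD mice received a high-fat diet and saline, and HFD+AOS mice the same diet with AOS at 10 mg/kg. Con-FMT and A10-FMT mice received the high-fat diet and, by mouth, gut microbiota of donor mice. The donors of Con-FMT had been dosed with water, and those of A10-FMT with AOS at 10 mg/kg. The donor contents were taken from the small intestine and pooled within each donor group, so that all recipients of a group shared 1 inoculum, and no removal of the recipients' own microbiota is described. The diet of the AOS group and the AOS schedule of the AOS and HFD+AOS groups are not given in the sources used here, and the AOS group is treated as on the regular diet from its label alone. The comparisons address what the diet, the transplants and AOS each did to the pathway.

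Cholesterol is built from acetyl-CoA. The early steps condense it to HMG-CoA and turn this into mevalonate, the middle steps make isoprenoids and join them to squalene, and the late steps close the ring to lanosterol and trim lanosterol to cholesterol. When sterols in the endoplasmic reticulum are low, SCAP escorts SREBP2 to the Golgi, where it is cleaved, and the released factor switches on nearly every enzyme of the route as well as its own gene. When sterols are high, the INSIG proteins hold SCAP back. The liver is a main site of the route, and in it the enzymes commonly move as a block and follow feeding and the daily cycle.

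SREBP factors bind sterol response elements near the start sites of these genes, together with NF-Y at CCAAT boxes and Sp1 at GC boxes. RefSeq windows of the 250 bases before the start (GRCm38.p6) were at hand for 22 of the 27 genes, and the stretches of 3 genes follow. Srebf2 and Insig2 were among the members called in A10-FMT against HFD, and Hmgcs1 holds the SREBP element. Idi1 was also called there and had a window, but is not printed. Capitals mark the letters TCACNCCAC (a classical SREBP element), CCAAT and GGGCGG, each read on either strand, so that ATTGG and CCGCCC mark the other strand. None of the 3 motifs overlapped another in these stretches. Hmgcs1 was taken by rule, as the 1 member whose window held TCACNCCAC, and the other two were chosen after the values were seen. The Insig2 stretch is the outermost of 3 windows of this gene. The Srebf2 stretch stops where the annotated gene of GENCODE M21 begins. The rest of its window, not printed, held further GC boxes at 79, 52 and 34 bases before the RefSeq start.
Hmgcs1, chr13:119690101-119690350, plus strand: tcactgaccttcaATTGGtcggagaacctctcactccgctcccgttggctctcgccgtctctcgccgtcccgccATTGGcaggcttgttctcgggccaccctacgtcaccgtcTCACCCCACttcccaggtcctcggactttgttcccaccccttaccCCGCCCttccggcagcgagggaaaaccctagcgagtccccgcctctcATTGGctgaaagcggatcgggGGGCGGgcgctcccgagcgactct
Insig2, chr1:121332590-121332839, minus strand: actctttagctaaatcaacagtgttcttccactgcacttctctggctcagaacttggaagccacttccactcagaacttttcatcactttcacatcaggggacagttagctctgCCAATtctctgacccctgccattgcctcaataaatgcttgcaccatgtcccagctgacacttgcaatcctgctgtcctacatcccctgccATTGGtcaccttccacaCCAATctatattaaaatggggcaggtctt
Srebf2, chr15:82147019-82147180, plus strand: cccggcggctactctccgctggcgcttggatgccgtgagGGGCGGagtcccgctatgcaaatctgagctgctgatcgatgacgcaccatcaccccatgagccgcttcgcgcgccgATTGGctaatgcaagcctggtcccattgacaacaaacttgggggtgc
The printed Hmgcs1 stretch held 1 SREBP element, 3 CCAAT boxes and 2 GC boxes, the Insig2 stretch 3 CCAAT boxes, and the Srebf2 stretch 1 CCAAT box and 1 GC box. A gene with several windows counted when any of them held the letters. Over the 22 members with a window, CCAAT was present in 20, all except Acat2 and Scap, against 41.1% of the 8374 tested genes with a window. GGGCGG was present in 19, against 63.4% of those genes. CCAAT and GGGCGG were both present in 17 of 22, against 26.2%. TCACNCCAC itself stood in 1 of 22, against 1.41%. Sterol response elements vary in sequence, so a window without these letters says nothing about binding.

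Several properties of the livers bear on all values. The deposited unit is RPKM, reads scaled by the length of the gene and by the mapped reads of the liver, so that levels can be compared between genes as well as between livers. Depth is not given with the values. It was estimated, from the RPKM that a single read adds in 264 rarely read genes, at a median of 14.3 M reads with quartiles of 12.4 M and 16.2 M, and was alike in all livers to within a factor of 1.08. Of 148 genes with a log2 gap of 1 or more between Con livers 1 and 2, the third Con liver fell between them in 98.0%, and for the third AOS liver this was so in 96.5% of 142 genes. In the other 4 groups each such share was between 58.1% and 76.8%. Among the 27 genes the third Con liver was the middle one of its group in 26, against 57.3% of all tested genes. The third AOS liver was so in 18, against 48.0%, and the third HFD liver in 21, against 38.1%. A weighted mean of the first and second Con livers came within a median log2 of 0.05 of the third over the 27 genes. From the shares over genes with a wide gap, the third Con and AOS livers may not be independent, and counts are also given without them.

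Clock genes separated the groups. Arntl, which encodes BMAL1, was at 12.1, 14.6 and 13.2 RPKM in HFD but at 1.18, 1.23 and 1.32 in HFD+AOS and 0.79, 0.69 and 2.41 in A10-FMT. Dbp, a clock output, was at 0.56, 0.27 and 0.59 RPKM in HFD, 112, 88.9 and 97.8 in HFD+AOS, 127, 70.8 and 49.2 in A10-FMT and 16.5, 3.24 and 22.6 in Con-FMT. In A10-FMT against HFD, 5 of 5 genes of the Bmal1 phase were lower and 9 of 10 of the Per phase higher. In HFD+AOS against HFD, 5 of 5 and 8 of 10 were so changed, and in A10-FMT 5 of 5 and 10 of 10 against Con and 4 of 5 and 4 of 10 against Con-FMT. Over all tested genes 6.60%, 8.75%, 12.0% and 1.68% were called either way in these comparisons, in the same order. In AOS against Con, Nr1d2 of the Per phase was the 1 called, higher by 1.39 on the log2 scale, where 0.133% of all tested genes were called. The Per-phase genes summed to between 170.2 and 317 RPKM in A10-FMT and 240.5 and 282 in HFD+AOS. The sum was 52.2 to 109 RPKM in Con-FMT, 31.5 to 73.8 in AOS, 23.7 to 47.7 in HFD and 17.6 to 32.2 in Con. The hour at which livers were collected is not given in the sources used here, and the part of the clock genes in the values below was not tested. Liver identity held in every group, since the summed level of 6 hepatocyte markers was from 38270 to 65680 RPKM. The 3 adipocyte markers Adipoq, Cfd and Plin1 summed to at most 0.32 RPKM in the 15 livers of the other groups, but Cfd reached 22.1, 1.34 and 0.08 RPKM in the 3 A10-FMT livers and Adipoq 4.42, 0.39 and 0. Over A10-FMT the 3 summed to between 0.08 and 27.4 RPKM, and the part of adipose tissue in the values was not tested. Of the markers of Kupffer cells, endothelium, lymphocytes and red cells, 0 were called in A10-FMT against HFD, Con or Con-FMT. Of 6 stellate cell and fibroblast markers, 2 (Col1a2 and Col3a1) were higher against Con, 1 (Col1a2) against Con-FMT and 0 against HFD. Against HFD 3 were at an unadjusted p under 0.05, all higher, where 1056 of the 10507 tested genes were higher at such a p. The 6 markers summed to 12.6 to 21.6 RPKM in A10-FMT, 11.8 to 15.99 in HFD and HFD+AOS and 8.84 to 11.8 in the other groups. Col3a1 was at 10.9, 7.44 and 5.43 RPKM in A10-FMT and 4.58, 6.38 and 4.75 in HFD. Of 2 tested cholangiocyte markers, Sox9 was lower against HFD and Con, with 0.91, 1.06 and 0.76 RPKM in A10-FMT, 3.56, 2.65 and 2.53 in HFD and 2.39, 1.95 and 2.08 in Con, and also lower in HFD+AOS against HFD. The other, Krt19, was not called against HFD or Con. Krt19 was at 1.84, 0.59 and 1.42 RPKM in A10-FMT, 1.17, 0.64 and 1.1 in HFD and 1.34, 1.54 and 0.89 in Con. The part of these cells in the values was not tested. Bulk RNA cannot tell fewer cells of a type from less RNA per cell.

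In these livers 2 of the 3 A10-FMT mice had far less transcript of the cholesterol route than any other mouse, while the third did not. In the first and second A10-FMT livers, 19 of the 27 genes were lower than in each of the 16 other livers, among them 15 of the 19 synthesis enzymes, Srebf2, Insig1, Insig2 and Rdh11. Over all tested genes both livers were the lowest in 4.64%. No member was highest in both, against 2.30% of tested genes. The third A10-FMT liver lay inside the range of the other 5 groups for all 27 genes, and inside the range of the HFD livers for 18. It held at least 2 times the mean of the first and second in 18 of 27 genes, which was so for 1.25% of all tested genes. The split was not confined to this route. Of the listed genes of fatty acid synthesis, all except Mlxipl and Thrsp were also highest of the group in the third A10-FMT liver. Acly was lower in the first and second than in each of the 16 other livers, at 28.4 and 30.9 RPKM, and at 65.5 in the third. The A10-FMT livers were set apart in this way after the values of the 27 genes were seen. The shares over all tested genes therefore describe these livers and test nothing. The summed level of the 27 genes was 792 and 845 RPKM in the first and second livers and 1826 RPKM in the third, against 1401 to 2398 RPKM in the 15 livers outside A10-FMT. The median SD of the members between A10-FMT livers was 0.672 on the log2 scale, against 0.124 for all tested genes, and from 0.105 to 0.425 in the other groups.

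**Figure D1:**
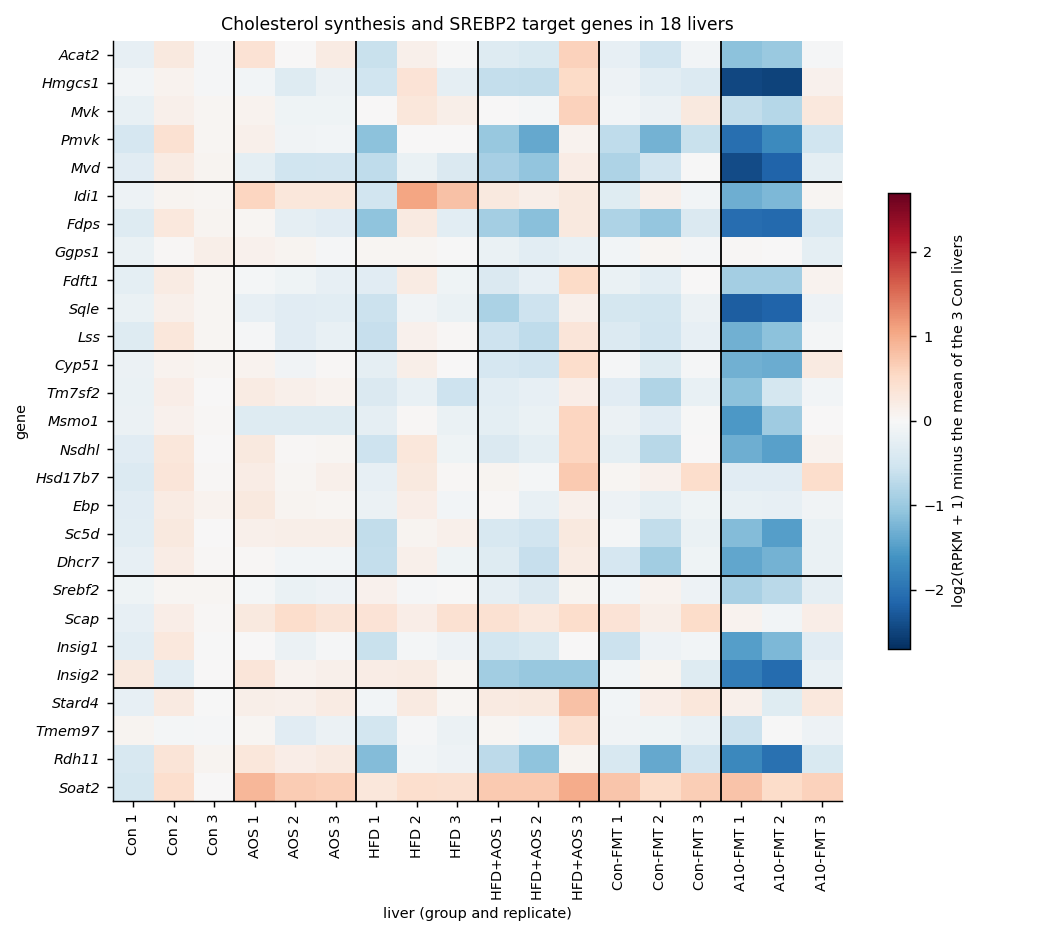
Each row is a gene, grouped by role from acetyl-CoA (top) to sterol handling (bottom), each column a liver, and colour gives log2(RPKM + 1) minus the mean of the 3 Con livers. The columns of the first and second A10-FMT livers are blue for most genes, that of the third is not, and Insig2 is also blue in the 3 HFD+AOS livers.

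A10-FMT was compared with HFD with limma over all genes, on log2(RPKM + 1), with p-values adjusted over 10507 genes. In this comparison 3 members decreased and 0 increased, against 418 genes lower, which is 3.98% of all tested, and 6.60% changed either way. The 3 were Srebf2, Insig2 and Idi1. A further 15 members had an unadjusted p under 0.05, all 15 with negative differences, so that 18 of 27 were under it. Over all tested genes 2571 of 10507 were under it, 1515 of them lower. The median difference of the 27 genes was -0.71 and that of all tested genes -0.03. Srebf2, Scap and Insig2 were lower and Soat2 higher in all 3 A10-FMT livers than in all 3 HFD livers, a separation seen in 13.4% of all tested genes for lower and 10.0% for higher. Without the third A10-FMT liver the count was 19 lower and 0 higher, where 7.19% of all genes tested were lower. Without the first or without the second A10-FMT liver it was 0, and without the first HFD liver it was 7. The calls over all tested genes in these fits are not given here. Without the third Con and AOS livers it was 2, Srebf2 and Insig2, where 395 of 10482 tested genes were called. Idi1 was then at an adjusted p of 0.0739. The counts of members are leave-one-out values. Since the third A10-FMT liver was seen to stand apart, the 19 are a description of the first and second.

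**Figure D2:**
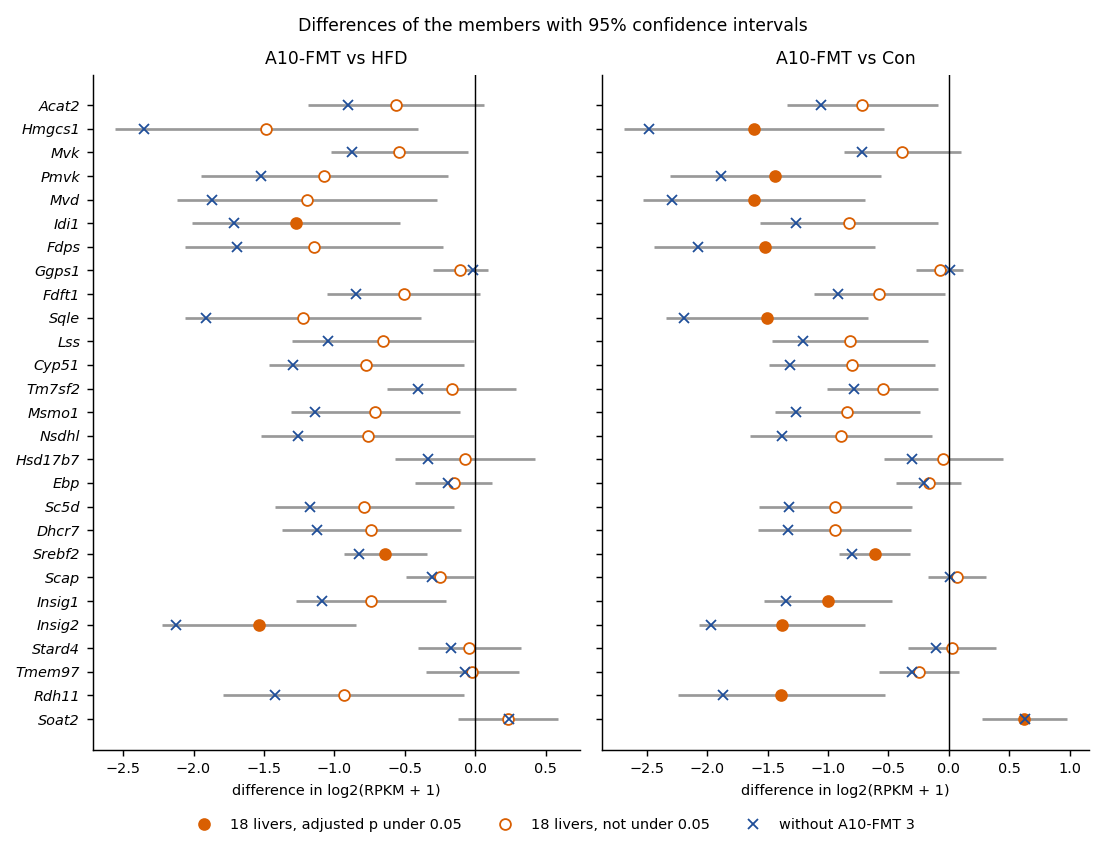
Points show the difference in log2(RPKM + 1) for each gene, A10-FMT minus HFD (left) and A10-FMT minus Con (right), with 95% confidence intervals from all 18 livers. Filled points passed an adjusted p of 0.05, 3 on the left and 10 on the right, and crosses give the difference without the third A10-FMT liver, which lies farther from 0 for most genes.

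Acat2 and Hmgcs1 open the route and Mvk, Pmvk and Mvd carry mevalonate on. Hmgcs1 encodes the cytosolic synthase that makes HMG-CoA and was one of the most abundant members, with a mean of 151 RPKM over 18 livers. Hmgcs1 was measured at 172, 193 and 175 RPKM in the Con livers, 170.3, 141 and 161 in AOS, 123, 234 and 153 in HFD, 115, 113 and 259 in HFD+AOS, 163, 147 and 139.8 in Con-FMT and 31.7, 30.9 and 196 in A10-FMT. The first and second A10-FMT livers were below every other liver and the third was above 2 of the 3 HFD livers. The difference from HFD was -1.48 (SE 0.51, adjusted p = 0.0839) and did not pass the test, whereas that from Con was -1.62 (SE 0.51, adjusted p = 0.0488). Without the third A10-FMT liver the difference from HFD was -2.35. Since that liver was singled out after its values were seen, this describes the first and second livers and is not a test of a decrease.

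Pmvk and Mvd act on mevalonate by phosphorylation and decarboxylation. Pmvk was at 40.5, 74.8 and 57.8 RPKM in the Con livers, 62.02, 52.6 and 52.9 in AOS, 25.4, 56.01 and 56.6 in HFD, 26.96, 20.9 and 60.3 in HFD+AOS, 34.4, 22.7 and 36.5 in Con-FMT and 12.9, 16.2 and 38.1 in A10-FMT. All 3 A10-FMT livers were below the 3 Con livers, while they overlapped HFD through the first HFD liver. Mvd had 18.2, 27.01 and 24.3 RPKM in the Con livers, 18.99, 15.3 and 15.7 in AOS, 13.8, 20.1 and 17.1 in HFD, 11.8, 10.4 and 26.4 in HFD+AOS, 12.5, 15.6 and 22.5 in Con-FMT and 3.48, 4.30 and 18.9 in A10-FMT. Here the third A10-FMT liver overlapped the groups. Both genes decreased against Con, Pmvk by 1.44 and Mvd by 1.61 on the log2 scale, with adjusted p of 0.0334 and 0.0244. Against HFD the differences were -1.07 and -1.19, with adjusted p of 0.124 and 0.104. Mvk, the mevalonate kinase, and Acat2, the cytosolic thiolase, had smaller differences from HFD of -0.54 and -0.56, neither passing the test. In the first and second A10-FMT livers Mvk was at 10.8 and 9.88 RPKM, against at least 15.2 elsewhere, and Acat2 at 20.6 and 22.5 RPKM, against at least 29.9. Acat2 has a close relative, Acat3, in the table, and reads that fit both could have been counted for either.

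Idi1, Fdps and Ggps1 make and extend the isoprenoid units. Idi1, the isomerase, was at 36.96, 43.2 and 42.6 RPKM in the Con livers, 61.6, 50.4 and 50.7 in AOS, 28.2, 86.2 and 71.5 in HFD, 49.3, 45.5 and 49.1 in HFD+AOS, 32.6, 45.1 and 39.02 in Con-FMT and 15.7, 17.1 and 42.2 in A10-FMT. Idi1 decreased in A10-FMT against HFD by 1.27 on the log2 scale (SE 0.35, adjusted p = 0.0392), which is a fold of 0.414. The groups overlapped, as the first HFD liver was below the third A10-FMT liver. HFD 2 and HFD 3 held the highest Idi1 values of the study. The call was lost in 7 of 18 fits that left out 1 liver, namely Con 3, AOS 3, HFD 2, HFD 3, HFD+AOS 1, A10-FMT 1 or A10-FMT 2, with adjusted p up to 0.164. Against Con the Idi1 difference was -0.83 (SE 0.35, adjusted p = 0.139).

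Fdps, which makes farnesyl diphosphate, had the highest mean level of the 27 genes, 213 RPKM. It was at 225, 347 and 301 RPKM in the Con livers, 297, 241 and 233 in AOS, 134, 338 and 233 in HFD, 151, 130.2 and 341 in HFD+AOS, 159.6, 139 and 219 in Con-FMT and 68.3, 66.0 and 212 in A10-FMT. All 3 A10-FMT livers were below the 3 Con livers, and Fdps decreased against Con by 1.53 on the log2 scale (SE 0.43, adjusted p = 0.031). Against HFD it was -1.14 (SE 0.43, adjusted p = 0.116). Ggps1 takes isoprenoids to geranylgeranyl diphosphate, away from sterols. It was the least abundant member, at 1.93 to 2.98 RPKM over the livers of the other groups and 2.63, 2.57 and 1.99 RPKM in A10-FMT, and its difference from HFD was -0.11 with a 95% interval of -0.30 to 0.09.

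Fdft1 joins farnesyl units to squalene, Sqle oxidises squalene, and Lss closes the ring. Sqle was at 37.8, 47.6 and 44.5 RPKM in the Con livers, 36.8, 34.8 and 35.2 in AOS, 28.5, 40.5 and 37.7 in HFD, 23.6, 28.7 and 47.8 in HFD+AOS, 30.6, 30.3 and 38.4 in Con-FMT and 8.43, 8.83 and 39.2 in A10-FMT. Its first and second A10-FMT values were far under the lowest of the 16 others, 23.6 RPKM, and the third lay among the HFD livers. Sqle decreased against Con by 1.51 on the log2 scale (SE 0.39, adjusted p = 0.0212), and its difference from HFD was -1.22 (SE 0.39, adjusted p = 0.0707). Fdft1 and Lss differed from HFD by -0.51 and -0.66, with adjusted p of 0.239 and 0.2.

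Of the 8 genes between lanosterol and cholesterol, 0 passed the test against HFD, and all 8 differences were below 0. Against Con 0 passed as well. At an unadjusted p under 0.05 were 5 against HFD and 6 against Con, where 2571 and 2768 of the 10507 tested genes were. The differences from HFD ran from -0.79 for Sc5d, the sterol desaturase, to -0.07 for Hsd17b7, a sterol ketoreductase. Cyp51, the lanosterol demethylase, was at 16.1, 15.7 and 48.6 RPKM in A10-FMT and 34.4, 46.3 and 41.4 in HFD. Dhcr7, which makes cholesterol from its last precursor, was at 24.7, 27.1 and 58.9 RPKM in A10-FMT and 42.2, 73.3 and 61.4 in HFD. Its difference from Con missed the threshold narrowly, at -0.94 (SE 0.30, adjusted p = 0.0501). Ebp and Hsd17b7 were not below the other groups in the first and second A10-FMT livers. Ebp, the sterol isomerase, was at 118, 117 and 127 RPKM in A10-FMT, inside the range of 109 to 162 RPKM of the other groups, and Hsd17b7 was at 10.9, 10.9 and 19.4 RPKM, inside its range of 10.3 to 23.1. Tm7sf2, a sterol reductase, was low in the first A10-FMT liver only, at 45.8 RPKM against 72.4 and 95.5.

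**Figure D3:**
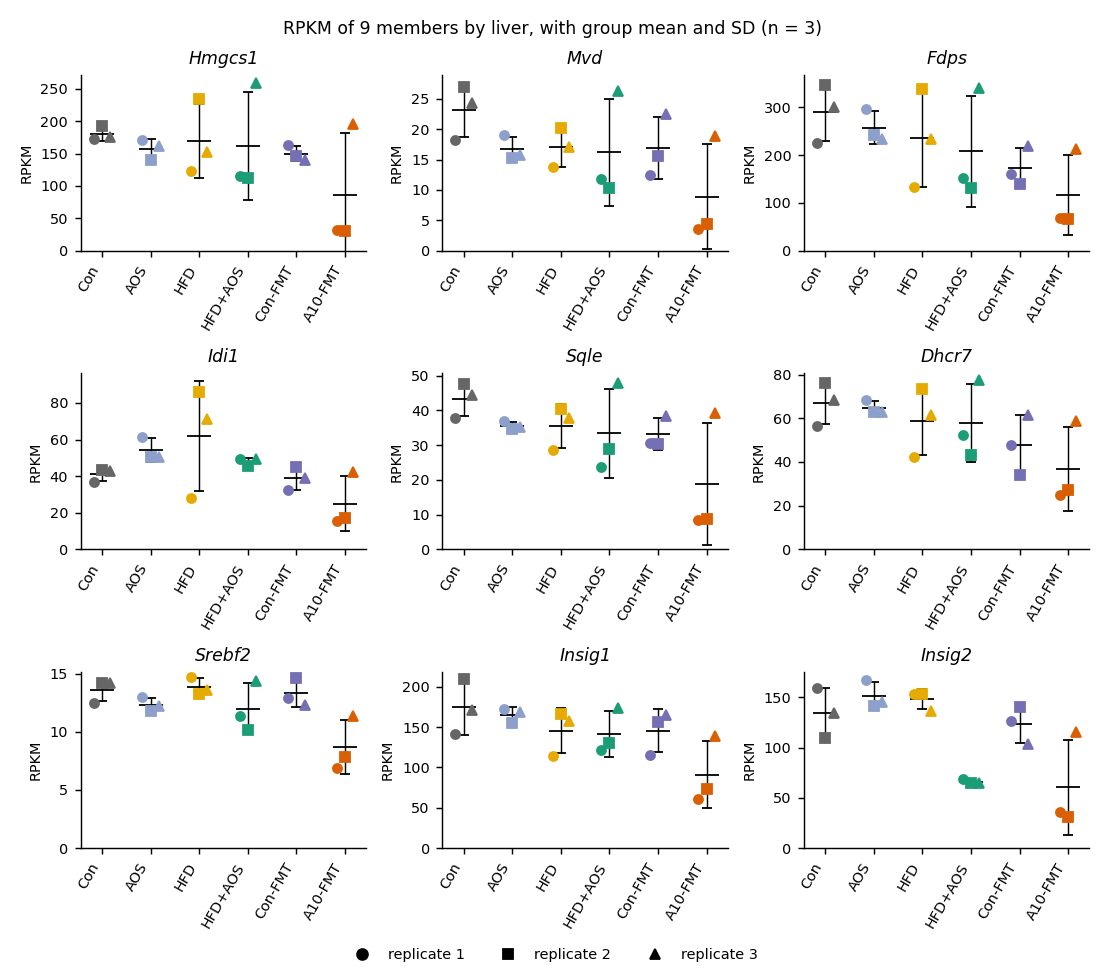
RPKM of 9 genes in each liver by group, with symbols for replicate number and black lines for the group mean and SD (n = 3; SD bars that would pass below 0 are not drawn past it). In A10-FMT the circle and the square lie at the bottom of most panels and the triangle with the other groups, while in HFD+AOS the triangle is the highest for most enzymes and all 3 Insig2 values are low.

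Of the 4 genes of sterol sensing, Srebf2 and Insig2 decreased against HFD. Srebf2 encodes SREBP2 (chr15:82147181-82205379, plus strand, GENCODE M21). Srebf2 was at 12.5, 14.2 and 14.2 RPKM in the Con livers, 12.99, 11.8 and 12.2 in AOS, 14.7, 13.3 and 13.6 in HFD, 11.4, 10.2 and 14.4 in HFD+AOS, 12.9, 14.7 and 12.3 in Con-FMT and 6.92, 7.81 and 11.3 in A10-FMT. All 3 A10-FMT livers were below all HFD, Con and Con-FMT livers, and they overlapped HFD+AOS. Srebf2 decreased against HFD by 0.64 on the log2 scale (SE 0.14, adjusted p = 0.0129), against Con by 0.62 (SE 0.14, adjusted p = 0.00955) and against Con-FMT by 0.58 (SE 0.14, adjusted p = 0.0445). In the 18 fits that left out 1 liver, the first of these was lost without A10-FMT 1 or A10-FMT 2 (adjusted p up to 0.071) and the second without A10-FMT 1 (0.0526). The difference from Con-FMT was lost in 14 of the 18, with adjusted p up to 0.219. Without the third Con and AOS livers together, the call against HFD was kept (adjusted p = 0.0317), and those against Con (0.0602) and Con-FMT (0.0986) were lost. The transcript of Srebf2 spans the microRNA gene Mir33, so that reads of both could have been counted together.

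Insig2 encodes one of the proteins that retain SCAP (chr1:121304353-121332589, minus strand, GENCODE M21). Insig2 was at 159.5, 109 and 134 RPKM in the Con livers, 168, 142 and 146 in AOS, 154, 154 and 137 in HFD, 68.95, 64.4 and 64.7 in HFD+AOS, 127, 140.2 and 104 in Con-FMT and 35.7, 30.6 and 115 in A10-FMT. In A10-FMT all 3 livers were below the HFD livers, and the third was far above the first and second. HFD+AOS was also below HFD in all 3 livers, with little spread (66.02 ± 2.54 RPKM against 148 ± 9.84, mean ± SD, n = 3). Insig2 decreased in A10-FMT against HFD by 1.54 on the log2 scale (SE 0.32, adjusted p = 0.0106), a fold of 0.345, and in HFD+AOS against HFD by 1.15 (SE 0.32, adjusted p = 0.0388), a fold of 0.45. Both comparisons share the 3 HFD livers. Against Con the A10-FMT difference was -1.38 (SE 0.32, adjusted p = 0.0116) and against Con-FMT -1.27 (SE 0.32, adjusted p = 0.0613), which did not pass. The call against HFD was lost without A10-FMT 1 or A10-FMT 2, with adjusted p up to 0.0612, and that against Con without Con 1, A10-FMT 1 or A10-FMT 2, up to 0.064. Without the third Con and AOS livers the adjusted p was 0.0274 against HFD and 0.0591 against Con.

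Insig1, the relative of Insig2 and itself a classical SREBP target, was at 142, 210.3 and 172 RPKM in the Con livers, 173, 155 and 169 in AOS, 114, 167 and 157 in HFD, 121, 129.9 and 174 in HFD+AOS, 116, 157 and 165 in Con-FMT and 60.99, 73.7 and 139 in A10-FMT. All 3 A10-FMT livers were below the 3 Con livers. Insig1 decreased against Con by 1.00 on the log2 scale (SE 0.25, adjusted p = 0.0166), a fold of 0.499, and its differences of -0.74 from HFD and -0.74 from Con-FMT had adjusted p of 0.0802 and 0.151. Scap, which encodes the escort of SREBP2, was at 22.3, 29.9 and 26.8 RPKM in the Con livers, 31.8, 36.8 and 33.3 in AOS, 33.8, 29.9 and 34.8 in HFD, 34.8, 31.8 and 36.5 in HFD+AOS, 34.2, 29.1 and 37.02 in Con-FMT and 27.9, 24.8 and 29.7 in A10-FMT. It did not pass the test in any comparison. The 3 A10-FMT livers were just below the HFD livers, with a difference of -0.25 (SE 0.11, adjusted p = 0.186), yet inside the range of Con, with a difference of 0.07 with a 95% interval of -0.17 to 0.31.

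Among the genes of sterol handling, Rdh11 and Soat2 were called. Rdh11, a retinal reductase known as an SREBP target, was at 33.9, 58.4 and 48.5 RPKM in the Con livers, 56.7, 51.98 and 54.6 in AOS, 19.9, 43.8 and 41.7 in HFD, 27.5, 21.02 and 48.3 in HFD+AOS, 33.6, 16.96 and 31.7 in Con-FMT and 13.1, 10.6 and 34.1 in A10-FMT. Its A10-FMT livers overlapped Con only through the first Con liver, and Rdh11 decreased against Con by 1.39 on the log2 scale (SE 0.40, adjusted p = 0.0355). Soat2, which esterifies cholesterol in hepatocytes, went the other way. It was at 6.59, 13.5 and 9.65 RPKM in the Con livers, 18.6, 15.9 and 15.5 in AOS, 12.03, 13.4 and 13.2 in HFD, 16.1, 16.3 and 20.1 in HFD+AOS, 16.7, 13.9 and 15.7 in Con-FMT and 16.9, 13.9 and 15.1 in A10-FMT. Con held the 2 lowest values of the study, and the A10-FMT livers were all above Con. Soat2 increased in A10-FMT against Con by 0.63 on the log2 scale (SE 0.17, adjusted p = 0.0236), with a difference from HFD of 0.23 (95% interval -0.12 to 0.59). Soat2 differed from Con by 0.74 (SE 0.17, adjusted p = 0.0815) in AOS and by 0.40 (SE 0.17, adjusted p = 0.27) in HFD, neither passing, although both passed when the second Con liver was left out. Stard4, a sterol carrier, and Tmem97, which binds the lysosomal sterol exporter NPC1, differed from HFD by -0.04 and -0.02, with 95% intervals of -0.41 to 0.32 and -0.35 to 0.31.

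Against Con, then, 10 of the 27 genes changed in A10-FMT, 9 lower (Hmgcs1, Pmvk, Mvd, Fdps, Sqle, Srebf2, Insig1, Insig2 and Rdh11) and Soat2 higher. Over all tested genes 4.51% were lower, 7.49% higher and 12.0% changed either way. The median difference was -0.82 for the 27 genes and 0.01 for all tested genes. Pmvk, Fdps, Srebf2 and Insig1 were lower and Soat2 higher in all 3 A10-FMT livers than in all 3 Con livers, a separation seen in 12.2% of all tested genes for lower and 16.3% for higher. The count of changed members rested on single livers. It was 21 without A10-FMT 3 (20 lower, where 5.72% of all tested genes were lower), 0 without A10-FMT 1 and 2 without A10-FMT 2. It was 6 without Con 1, 3 without Con 2 and 2 without Con 3. The calls over all tested genes are not given here for the fits without A10-FMT 1, A10-FMT 2 or a Con liver. A loss among the members cannot there be told from a general one. With the third Con and AOS livers both left out the count of members was 0, where 548 of 10482 tested genes were called. Then 14 of the 27 were at an unadjusted p under 0.05, against 2113 of all tested genes, and the median difference of the members was -0.80. Pmvk, Mvd, Sqle, Insig1 and Rdh11 each lost the call without Con 2, Con 3, A10-FMT 1 or A10-FMT 2, Fdps also without Con 1, and Soat2 without Con 1, Con 3 or A10-FMT 1. That of Hmgcs1 was lost in 16 of the 18 fits that left out 1 liver and stayed only without HFD+AOS 3 or A10-FMT 3.

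A10-FMT and Con-FMT share the diet and the inoculation and differ in the donors. Srebf2 was the 1 member called between them, where 1.68% of all tested genes were called, and the 1 with all 3 livers of A10-FMT below all of Con-FMT, a separation seen in 11.2%. All 27 differences were below 0, with a median of -0.55 against -0.03 for all tested genes. At an unadjusted p under 0.05 were 9, where 1727 of the 10507 tested genes were. The 3 Con-FMT livers varied less than the A10-FMT livers, with a median SD over the members of 0.217 against 0.672 on the log2 scale. Without A10-FMT 3, the count was 11, where 5.36% of all tested genes were called, again a description of the first and second A10-FMT livers. Con-FMT against HFD gave 0 called members by limma, 0 at an unadjusted p under 0.05, and a median of -0.12. Here 0.00952% of all tested genes were called, and 697 of 10507 were at an unadjusted p under 0.05. The widest difference was -0.52 for Idi1, with a 95% interval of -1.26 to 0.21.

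The diet alone gave no called member. HFD against Con had 0 of 27 by limma, where 0.381% of all tested genes were called. At an unadjusted p under 0.05 were 2, Scap and Soat2, both higher in HFD, where 1623 of the 10507 tested genes were. The median difference of the members was -0.13. The first HFD liver was the lowest of its group in 22 of 27 genes and the second the highest in 22, and the levels of Fdps, 134, 338 and 233 RPKM, show that spread. The 95% interval for Hmgcs1 was -1.21 to 0.94 and that for Fdps -1.30 to 0.53. These intervals use a spread pooled over all 6 groups, A10-FMT included. Without A10-FMT 3 the SE of this comparison fell from 0.51 to 0.26 for Hmgcs1 and from 0.43 to 0.34 for Fdps. The count of called members was then still 0. AOS against Con had 0 of 27 by limma, where 0.133% of all tested genes were called. At an unadjusted p under 0.05 were 2, again Scap and Soat2 and both higher, where 1633 of the 10507 tested genes were. The groups did not overlap for 6 members, lower in AOS for Hmgcs1, Sqle and Msmo1 and higher for Idi1, Scap and Soat2, where 5.27% of all tested genes were lower without overlap and 19.5% higher.

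In HFD+AOS, Insig2 decreased and no synthesis enzyme was called. The 19 synthesis enzymes had a median difference from HFD of -0.07, and 0 were called by limma, with Ggps1 the 1 at an unadjusted p under 0.05. Over all tested genes 2754 of 10507 were at such a p. Insig2 was the 1 called member, where 8.75% of all tested genes were called. Insig2 and Ggps1 were lower, and Stard4 and Soat2 higher, in all 3 HFD+AOS livers than in all 3 HFD livers, where 14.0% and 13.2% of all tested genes were so separated. The HFD+AOS livers were not alike. The third was the highest of its group in 24 of the 27 genes and among the 2 highest of all 18 livers in 19, where it was among the 2 highest in 19.9% of all tested genes. Hmgcs1 was at 115, 113 and 259 RPKM in the 3 livers and Sqle at 23.6, 28.7 and 47.8, whereas Insig2 was at 68.95, 64.4 and 64.7. The Insig2 call was lost without Con 3, AOS 3, or any of the 6 livers of HFD and HFD+AOS, with adjusted p up to 0.1, and without the third Con and AOS livers together, while the log2 difference stayed between -1.21 and -1.13. Without Con 1, Soat2 was called as well. The effect of AOS on the high-fat diet minus its effect on the regular diet was -1.34 (SE 0.46, adjusted p = 0.194) for Insig2. In this contrast 0 of 27 were called by limma, where 0.504% of all tested genes were called. At an unadjusted p under 0.05 were 3 (Ggps1, Insig2 and Tmem97), where 1541 of the 10507 tested genes were. Insig2 passed there without A10-FMT 3 and in a fit of only the 4 groups concerned. Arntl was low and Dbp high in the 3 HFD+AOS livers, as in the A10-FMT livers, and the part of the clock genes in the Insig2 values was not tested.

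**Figure D4:**
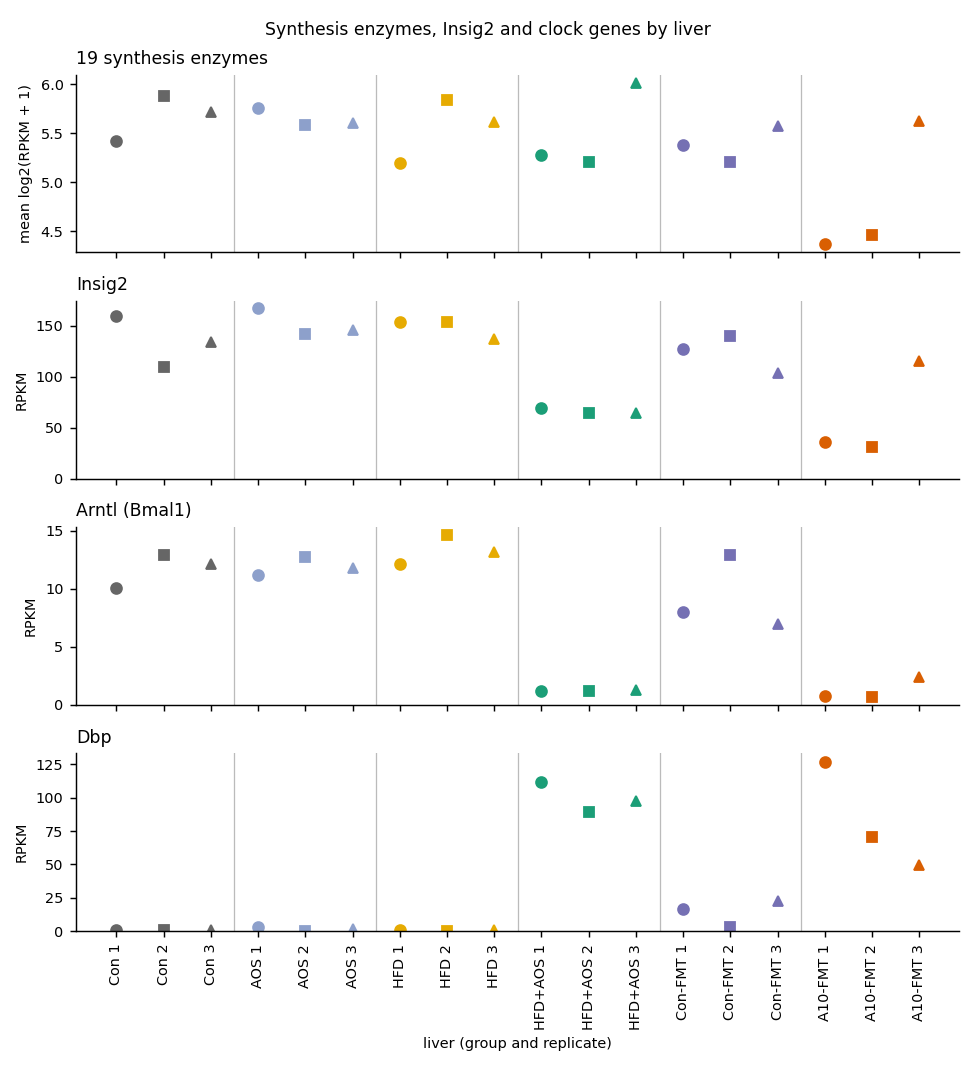
For each liver, from top to bottom, the mean log2(RPKM + 1) of the 19 synthesis enzymes (axis not starting at 0), and the RPKM of Insig2, Arntl and Dbp. The enzymes are low in the first and second A10-FMT livers alone, at 4.37 and 4.46 against 5.20 to 6.02 in the other 16, Insig2 is low there and in all HFD+AOS livers, and Arntl is low and Dbp high in all livers of both groups.

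Any difference among the 6 groups was called for 3 members, Insig2 (adjusted p = 0.00958), Soat2 (0.0242) and Srebf2 (0.0294), where 14.8% of all tested genes were called. At an unadjusted p under 0.05 were 13 of 27, where 3430 of the 10507 tested genes were. Leaving out A10-FMT 3 gave 19 members (17.7% of all tested genes), HFD 1 gave 6 (17.5%), and Con 3 gave 1 (8.54%).

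The list of other genes of the pathway held 19, of which 18 were tested. In A10-FMT against HFD, 3 of 18 were higher and 0 lower, where 6.60% of all tested genes changed either way. The median difference of the 18 was -0.03. Srebf1, which encodes the lipogenic factor SREBP1, increased by 0.94 on the log2 scale (adjusted p = 0.0119), with 77.7, 90.4 and 87.6 RPKM in A10-FMT against 42.6, 44.4 and 44.2 in HFD. Npc1, the lysosomal sterol exporter, increased by 0.47 (adjusted p = 0.00809), with 31.7, 30.7 and 32.5 against 23.0, 21.99 and 22.9 RPKM. Por, the reductase that feeds electrons to Cyp51 and Sqle, increased by 1.35 (adjusted p = 0.0134), with 101, 152 and 63.4 against 21.5, 51.02 and 51.01 RPKM. For Srebf1 and Npc1 the third A10-FMT liver was with the first and second, unlike for the synthesis enzymes. In the 18 fits that left out 1 liver Npc1 kept its call, Srebf1 lost it without A10-FMT 2 (adjusted p = 0.0563) and Por without A10-FMT 1 or A10-FMT 2 (up to 0.0748). In HFD+AOS against HFD, Srebf1 and Npc1 also increased, by 0.92 and 0.62, and in A10-FMT against Con 4 of 18 did, Srebf1, Npc1, Por and Acat1. Over all tested genes 8.75% and 12.0% were called either way in these comparisons. Npc1 was the 1 of 18 called in HFD against Con, higher by 0.55, where 0.381% of all tested genes were called. Por was the 1 called in A10-FMT against Con-FMT, where that share was 1.68%. Both of these calls were lost without the third Con and AOS livers, with adjusted p of 0.205 and 0.0734. The Npc1 call was also lost without Con 1, Con 3, AOS 3 or any HFD liver, and that of Por without any Con-FMT liver, A10-FMT 1 or A10-FMT 2.

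Several of the genes could share reads with neighbours. Strand was not stated, and Fdft1 overlaps Ctsb, Cyp51 overlaps Akap9, Ggps1 overlaps Arid4b and Mvd overlaps a gene model on the opposite strand in GENCODE M21, so that reads of the 2 strands cannot be told apart. On the same strand, Tm7sf2 overlaps Vps51, and Fdps overlaps the gene model Gm43738.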

How the data were processed

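Liver RNA-seq of 18 mice was used, 3 in each of the 6 groups that the labels of the samples give. The authors deposited RPKM values per gene symbol, rounded to 2 decimals. The paper names SOAPaligner for mapping to reference genes, with all hits of a read reported, and the submitters' processing notes name Bowtie 0.12.2 and mm10. Strandedness is not given in the sources used here. Rows reaching 1 RPKM in 3 or more livers were tested, and 1 was added before taking log2, so that changes of low genes are understated. limma 3.58.1 in R 4.3.3 (lmFit, eBayes with trend) fitted 1 mean per group over all 18 livers. Adjustment was by Benjamini-Hochberg over the 10507 genes, and an adjusted p under 0.05 was the threshold. The script was tested on simulated data. Read numbers are not in the table, so count tests were not run. Nothing says that mice of a group came from separate cages, so the p-values speak for these livers only. They set group differences against a spread between livers that was pooled over all 6 groups. For the members that spread was unequal, with a median SD of 0.672 in A10-FMT and 0.105 in AOS on the log2 scale. The SE of the A10-FMT comparisons thus also draws on groups with less spread than A10-FMT.

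The 27 genes and the other lists were chosen with earlier results of these data known. All 27 could be named, with every liver's value for those called in at least 1 comparison and for the genes of sterol sensing. Genes of other lists are named where they were called or mark a cell type or the clock. A further 4 genes of the pathway are not reported here. Settings tried besides these were livers scaled to the same median, 0.1 in place of 1 before the log, all rows without a filter, fits of the compared groups alone, the replicate number as a block, each liver left out in turn, and the Con and AOS livers numbered 3 left out together. The numbers do not pair the livers, as same-numbered livers of 2 groups correlated at -0.177 to 0.225 in their deviations from the group means, with 0 of 7 comparisons having all above 0.1. Motifs were searched on both strands of RefSeq windows (GRCm38.p6), and gene positions are from GENCODE M21. Tables and figures were made in Python 3.11.15 (pandas 2.3.3, numpy 2.4.6, matplotlib 3.10.9).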

Additional observations from a re-analysis of the deposited data

How the results depend on the processing

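Leaving out 1 liver at a time moved the number of changed members from 0 to 19 in A10-FMT against HFD, 0 to 21 against Con, 0 to 11 against Con-FMT, 0 to 2 in HFD+AOS against HFD, 0 to 1 in HFD against Con, in AOS against Con and in the difference between the AOS effects, and 1 to 19 for any difference among groups, and left it at 0 in Con-FMT against HFD. Each upper end for A10-FMT came without A10-FMT 3, and the cause was not tested. With only the compared groups fitted, the spread came from the livers of those groups alone, and 0 members were called in A10-FMT against HFD, Con and Con-FMT. Insig2 was called in HFD+AOS against HFD and for the difference between the AOS effects. The median SD of the members was 0.672 in A10-FMT and 0.105 to 0.425 in the other groups, and the reason for the lost calls was not tested. Without the low-value filter the numbers were 5 against Con, 0 against Con-FMT, 0 in HFD+AOS against HFD and 1 for any difference. Without the third Con and AOS livers they were 0, 0, 0 and 1 in the same order, where 548, 82, 495 and 522 of 10482 tested genes were called. For the other settings the calls over all tested genes are not all given here, so these counts describe the members alone. With the replicate block 5 were called in A10-FMT against HFD (Sqle and Insig1 added) and 5 for any difference (Insig1 and Rdh11 added), but the replicate number carries no pairing. Leaving out 1 liver moved the median difference of the members from -1.09 to -0.50 in A10-FMT against HFD, -1.26 to -0.55 against Con and -0.84 to -0.29 against Con-FMT, and across 0 in HFD against Con (-0.26 to 0.05), AOS against Con (-0.06 to 0.06), HFD+AOS against HFD (-0.24 to 0.10) and the difference between the AOS effects (-0.27 to 0.17), where no direction is read from it. Of 360 values of single called members under alternatives, 244 were still called, 116 were not and 0 changed sign.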

Other observations

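Genes of sterol export and of lipogenesis stood beside the synthesis enzymes in the same livers. Abcg5 and Abcg8 encode the paired transporter that moves cholesterol into bile. Abcg5 was at 17.7, 14.7 and 16.6 RPKM in the Con livers, 34.1, 26.4 and 27.8 in AOS, 23.1, 21.6 and 23.5 in HFD, 40.9, 41.2 and 45.6 in HFD+AOS, 40.2, 27.5 and 31.1 in Con-FMT and 57.0, 46.9 and 43.01 in A10-FMT. All A10-FMT livers were above all HFD and Con livers, the third among them, as were all HFD+AOS livers. Abcg5 increased in A10-FMT against HFD by 1.07 on the log2 scale (limma, adjusted p = 0.000236) and in HFD+AOS against HFD by 0.88 (adjusted p = 0.00111). Abcg8 increased by 0.89 and 1.04 in the same comparisons, which share the HFD livers. These 4 calls were kept in all 18 fits that left out 1 liver. Both genes were also higher in AOS than in Con, by 0.81 and 0.86, but without the third Con and AOS livers the adjusted p of each was 0.46. Of the 12 tested genes of sterol transport and LXR targets, 2 were called in A10-FMT against HFD and 3 in HFD+AOS against HFD, all higher, Lpcat3, a phospholipid remodelling enzyme, being the third of the latter. Over all tested genes 6.60% and 8.75% were called either way in these comparisons. The Lpcat3 call was lost without HFD 3, HFD+AOS 1 or HFD+AOS 3 (adjusted p up to 0.0969) and without the third Con and AOS livers (0.0509).

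Of the 15 tested genes of fatty acid synthesis, 1 was called in A10-FMT against HFD, where 6.60% of all tested genes were called. Thrsp, a regulator of lipogenesis, increased by 2.64 on the log2 scale (limma, adjusted p = 0.00487), with 355, 635 and 587 RPKM in A10-FMT against 52.02, 95.8 and 106 in HFD. It also increased in HFD+AOS against HFD by 2.39, with 425, 269 and 695 RPKM. Against Con, Acacb and Scd1, which make malonyl-CoA and desaturate fatty acids, differed in A10-FMT by -2.04 and -3.15 on the log2 scale, the call of Scd1 being lost without A10-FMT 1, A10-FMT 2, AOS 3 or any Con liver. The other high-fat groups were also below Con. Mean Scd1 was 744 RPKM in Con, 137 in HFD, 296 in HFD+AOS, 96.5 in Con-FMT and 106 in A10-FMT. Mean Acacb was 13.3, 6.73, 5.52, 3.09 and 2.56 RPKM in the same order. In HFD against Con 0 of the 15 genes were called, where 0.381% of all tested genes were. Of the 15, 12 were lower and 3 higher, with a median difference of -0.51. At an unadjusted p under 0.05 were 5, all lower, where 404 of the 10507 tested genes were lower at such a p.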
